A study of Danio rerio with 6 samples.

Results

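Macrophages were examined among cells dissociated from zebrafish melanomas and the tissue around them. The 120 macrophages described here are 55 cells of library E and 65 cells of library F, out of 2782 cells that passed the filters in both libraries. They were chosen by measured values, namely by the share of a cell's transcripts that came from 6 genes, grn1, grn2, c1qc, mfap4, hmox1a and lygl1. The fish were of the casper strain and carried human BRAF with the V600E change under the mitfa promoter, which is active in pigment cells. They lacked p53 (p53-/-) and mitfa (mitfa-/-), and had received mitfa-driven MITF and GFP so that tumors formed. They were adults raised for several months after injection. All cells of both libraries share this genotype, so no cell from a fish without a tumor was measured. The tumor and the tissue beside it, without head and tail, were digested with an enzyme, and after sorting, as many cells with GFP as without it were loaded and sequenced from the 3' end of the transcripts. The labels count 2 fish for these cells and 1 library letter for each, so the libraries are read as 1 fish each, with no further replicate.

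Macrophages are phagocytes that take up dying cells, microbes and debris and break them down in lysosomes. In tumors they can present antigen, release cytokines that draw in other leukocytes, and recycle the iron and lipid of the cells they have engulfed. In zebrafish they are recognized by genes such as mpeg1.1, which encodes a pore-forming protein, marco, a scavenger receptor, csf1ra, a receptor for the growth factor that keeps macrophages alive, and the 3 chains of complement C1q.

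Transcripts were counted as UMIs (unique molecular identifiers, each marking 1 captured RNA molecule). Cells with at least 200 genes and at most 20% of UMIs from the mitochondrial genome were kept, which left 1780 cells in E and 1002 in F. In 93 cells of E and 106 cells of F at least 3 of the 6 genes were detected, and these were ranked by the share of their UMIs in the 6 genes. The highest cell had 20.1% of its UMIs there in E and 6.74% in F, and the median macrophage had 1.86% in E and 1.98% in F. The last macrophage had 0.469% in E and the first cell left out had 0.442%. In F the last macrophage had 0.819% and the first cell left out 0.817%, so the boundary did not fall in a gap, and 38 cells of E and 41 of F with 3 or more of the genes are among the other cells. All 6 genes were detected in 14 macrophages of E and 20 of F, and exactly 3 in 7 of each library. Macrophages had a median of 16015 UMIs in E (728 to 42302) and 17134 in F (697 to 49644), where the other cells had 16273 in E and 8155 in F. Their UMIs summed to 836589 in E and 1229818 in F. No cell barcode occurred in both libraries.

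**Figure D1:**
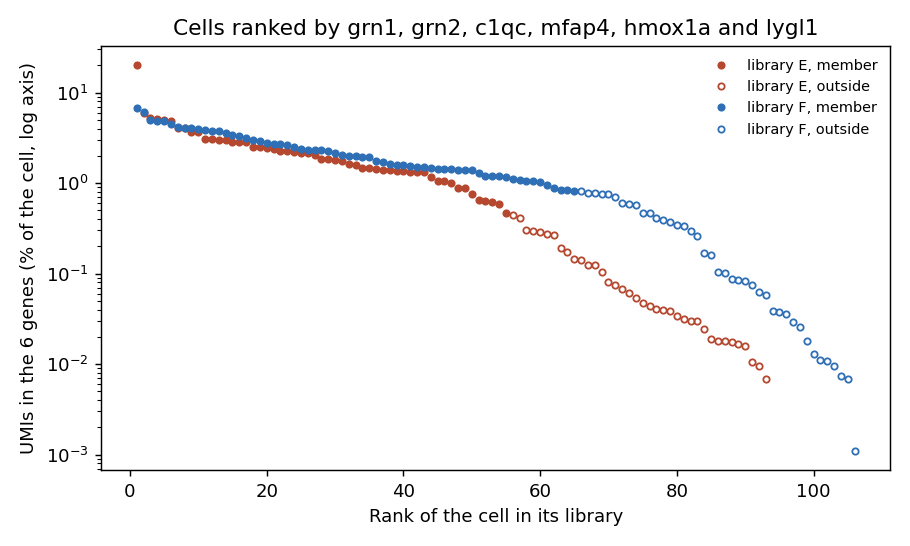
Share of each cell's UMIs in the 6 genes (vertical, percent, log axis) against its rank in its library (horizontal), for all cells with at least 3 of the genes detected. Filled points are the 55 macrophages of E and the 65 of F, open points the cells left out, and the curve runs on without a step at 0.469% in E and 0.819% in F.

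Genes that took no part in the ranking bear on the name of these cells. Levels are given as CPM, the UMIs of a gene per 1000000 UMIs summed over the cells of a group, with exact Poisson intervals at 95% that cover counting error only. mpeg1.1 was at 87.3 CPM (68.4 to 109.7) in macrophages of E and 70.7 CPM (56.7 to 87.3) in F, against 2.38 and 2.61 CPM in the other cells. It was detected in 45.5% and 47.7% of macrophages, and among the cells of the lyz cluster described below, at median depths of 11962 UMIs in E and 5821 in F, in 0% and 1%. Over all 3 leukocyte clusters described below, mpeg1.1 was at 23.6 CPM in E and 3.65 CPM in F, so that in E it was less than 4-fold higher in macrophages than in these cells. marco was at 391 and 497 CPM in macrophages of E and F, against 3.71 and 7.20 CPM in the other cells. It was detected in 43.6% and 70.8% of macrophages, so most macrophages of E had no UMI of it. csf1ra was sparse, with 22 UMIs in each library, 26.3 CPM in E and 17.9 CPM in F, against 0.866 and 4.75 CPM in the other cells. spi1b, a transcription factor of myeloid cells, was found in 98.2% and 96.9% of macrophages. The microglia markers apoeb and p2ry12 had 0 UMIs in E and 1 and 2 UMIs in F. Yet havcr1 and slc7a7, 2 of the 8 genes of the microglia list, were at least 4-fold higher than in the other cells of both libraries. Metaphocytes are macrophage-like cells of the zebrafish skin. Beside the ranking gene grn2, 1 of 5 metaphocyte genes was higher, ponzr1, and 1 was lower, cdh1. Over all genes compared, 2.35 percent were at least 4-fold higher and 1.49 percent lower. The epithelial gene epcam had 0 UMIs in both libraries and cldnh 0 in E and 1 in F. A gene with no UMI is read against a floor of 3 UMIs, which is 3.59 CPM in E and 2.44 CPM in F.

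Clustering all kept cells by their whole transcriptomes placed 103 of the 120 macrophages in 1 cluster of 15, 49 of E and 54 of F. The 6 ranking genes took part in the clustering, so this placement is a description. The other 17 were shallower, with medians of 3036 UMIs in E and 5075 in F, against 17199 and 18923 UMIs for those in the cluster. Of these, 10 lay in a cluster led by ighv1-4, igic1s1 and GZMH, 6 in a cluster of shallow cells led by the liver genes apoa1b, apoa2 and fabp10a, and 1 in a neutrophil-like cluster led by lyz, lect2l and npsn.

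Against all other cells of its library, every one of 13660 genes with at least 10 UMIs in each library was given a log2 ratio of CPM, with 5 CPM added to both sides. At 4-fold or more in both libraries, 321 genes were higher in macrophages, 2.35 percent of those compared, and 204 were lower, 1.49 percent. Since the cells were ranked on this contrast, it is described without a test. The ratios of the libraries had a Pearson r of 0.76 across genes, which are not independent replicates, and 2 genes were past 4-fold in opposite directions. In the macrophage identity list 12 of 19 genes were higher and none lower, and in the list of phagocytic receptors 7 of 21 were higher and none lower. Leaving out for each gene the macrophage with most of its UMIs in each library kept 269 of the 321. The number of lower genes depended on where the ranking stopped and was 75 when 10 more cells of each library were taken in.

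**Figure D2:**
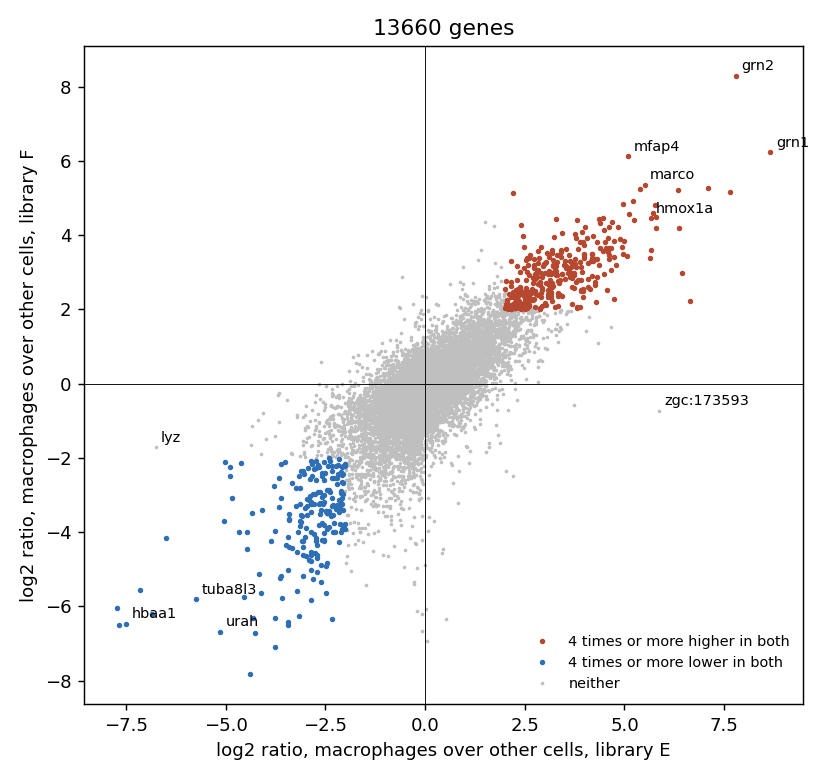
Log2 ratio of CPM, macrophages over other cells, in library E (horizontal) and library F (vertical) for 13660 genes. Colored points are at least 4-fold higher (321) or lower (204) in both libraries, and labeled genes are described in the text, among them grn1 at 8.66 in E and 6.24 in F.

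The ranking genes differed widely in how they were spread over the cells. grn1, which encodes a granulin, a secreted lysosomal growth regulator, was detected in every macrophage. It reached 15011 CPM in E and 13861 CPM in F, against 32.2 and 178 CPM in the other cells. lygl1, a goose-type lysozyme that cleaves bacterial cell walls, was also detected in every macrophage, at 2919 and 2181 CPM, against 79.9 and 86.8 CPM. c1qc, a chain of complement C1q, was at 557 and 681 CPM, against 1.95 and 13.3 CPM, and was detected in 92.7% and 84.6% of macrophages. hmox1a, a heme oxygenase that frees iron from heme, was at 844 and 1649 CPM, against 11.8 and 70.6 CPM. mfap4, a gene of the fibrinogen-related family used in zebrafish as a macrophage marker, was at 244 and 872 CPM, against 2.26 and 7.51 CPM, and was detected in 50.9% and 70.8% of macrophages. grn2, a second granulin gene, was at 1408 and 5787 CPM, against 1.33 and 13.5 CPM, yet it was detected in only 58.2% and 60% of macrophages.

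Of the other genes with the largest ratios in both libraries, several belong to the same functions. c1qb was at 250 and 507 CPM in macrophages of E and F, against 1.92 and 11.9 CPM, and c1qa at 123 and 148 CPM, against 0.680 and 3.75 CPM. The 3 C1q chains were thus all past 4-fold, together with zgc:158446 and cfp, which encodes properdin, the factor that stabilizes the alternative complement pathway. Beside the ranking gene c1qc, c1qa, c1qb, zgc:158446 and cfp were the 4 higher ones of 19 complement genes compared, and 1 was lower. Over all genes the shares were 2.35 percent higher and 1.49 percent lower. The 19 genes had a median log2 ratio of -0.33 in E and -0.76 in F, so the list as a whole was not raised. The liver-type complement gene c3a.1 had no UMI in macrophages of either library, against 19.5 and 43.4 CPM in the other cells. slc2a6, a sugar transporter of lysosomes, had log2 ratios of 5.80 and 4.49, and stoml3b, a stomatin-like membrane protein, 5.76 and 4.82. NPC2 (1 of many), 1 of several genes named for the lysosomal cholesterol carrier, had ratios of 5.71 and 4.60, and ms4a17a.9, a gene of a family of membrane-spanning proteins, 5.24 and 4.40. fgl2a, a fibrinogen-like gene, had ratios of 4.69 and 4.36, moxd1, a monooxygenase-like gene, 4.46 and 4.45, and lgals3bpb, related to a galectin-binding glycoprotein, 4.37 and 4.43. si:dkey-119g10.4 (7.09 and 5.27) and si:dkey-6n3.3 (7.65 and 5.17) carry no functional name. In E, 1 macrophage held 48.8% of the si:dkey-6n3.3 UMIs and 47.7% of those of marco.

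The granulin and lysosome list, the longest of the lists at 52 names, held the most higher genes. Beside the ranking genes grn1, grn2 and lygl1, which are in the list and were higher by the choice of cells, 16 of 43 granulin and lysosome genes were at least 4-fold higher in both libraries and none was lower. Over all genes 2.35 percent were higher and 1.49 percent lower. The 43 genes had a median log2 ratio of 1.85 in E and 1.88 in F, where the median over all genes was -0.07 and -0.19. Without the 3 ranking genes the list summed to 18641 CPM in macrophages of E and 25564 CPM in F, against 6371 and 7868 CPM in the other cells. The cysteine protease gene ctss2.1 was at 1768 and 2389 CPM, against 30.6 and 225 CPM, and ctss2.2 at 912 and 987 CPM, against 11.7 and 49.4 CPM. lgmn, which encodes legumain, an asparagine-specific protease, was at 1119 and 1882 CPM, against 115 and 117 CPM. Subunits of the proton pump that acidifies lysosomes were higher too, with tcirg1b at log2 ratios of 4.19 and 3.48 and atp6v0ca at 3.08 and 2.53. tfec and tfeb, transcription factors of the family that drives lysosomal genes, had ratios of 4.66 and 3.06 for tfec and 3.34 and 2.75 for tfeb. Not every lysosomal gene set macrophages apart: ctsla was at 1768 and 3106 CPM, against 1406 and 928 CPM, and cd63 at 2534 and 2945 CPM, against 1731 and 1137 CPM.

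Genes for iron, antigen and oxidants showed a few large ratios in each group, where 2.35 percent of all genes were at least 4-fold higher. Beside the ranking gene hmox1a, 2 of 18 genes of the heme and iron list were past 4-fold, the heme transporter slc48a1b and fth1a. fth1a, the heavy chain of the iron store ferritin, was at 4413 and 5127 CPM in macrophages of E and F, against 763 and 741 CPM. hp, which encodes haptoglobin, the binder of free hemoglobin, was listed with the liver genes but was at 1377 and 1103 CPM in macrophages, against 105 and 109 CPM. The liver genes apoa1b and fabp10a had 1 UMI each in macrophages of E and 4 and 2 UMIs in F. cd74a and cd74b, forms of the invariant chain that guides MHC class II molecules, were the 2 of 6 class II genes past 4-fold, at 779 and 1534 CPM for cd74a, against 28.4 and 262 CPM. None of 13 class I and peptide processing genes was past it, and b2m, the light chain of class I, was at 2668 and 2362 CPM, against 1038 and 2604 CPM. The phagocyte NADPH oxidase makes superoxide. Its subunit genes cyba and cybb and the regulatory GTPase gene rac2 were past 4-fold. cybb, the catalytic subunit, was at 163 and 89.4 CPM, against 6.06 and 11.8 CPM. ncf1, an organizing subunit, was at 221 and 108 CPM, against 33.9 and 99.2 CPM.

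Among 30 cytokine and chemokine genes compared, 6 were at least 4-fold higher in both libraries, ccl34a.4, cxcl19, irg1, pdgfaa, tnfa and tnfb, and 2 were lower. Over all genes 2.35 percent were higher and 1.49 percent lower, and the median log2 ratio of the cytokine and chemokine list was -0.09 in E and -0.32 in F. irg1, which encodes the enzyme that makes itaconate in activated macrophages, was listed with the cytokines and had log2 ratios of 6.38 and 4.19. cxcl19, a chemokine gene, was at 1030 and 857 CPM in macrophages of E and F, against 220 and 19.6 CPM in the other cells. tnfa, a tumor necrosis factor gene, was at 104 and 85.4 CPM, against 0.928 and 4.06 CPM, and was detected in 34.5% and 40% of macrophages. ccl34a.4, a chemokine gene, was at 210 and 355 CPM, against 1.39 and 28.2 CPM, and 1 macrophage held 41.5% of its UMIs in E and 44.4% in F. il34, a ligand of the csf1ra receptor, was lower, with 13 UMIs (15.5 CPM) in E and 4 UMIs (3.25 CPM) in F, against 177 and 113 CPM. The chemokine gene cxcl18b was the other lower one, with 1 UMI in each library. Of 22 receptor genes 4 were higher, the chemokine receptors cxcr3.2, ccr9a and cxcr4b and the cytokine receptor subunit csf2rb. cxcr3.2 was at 385 and 411 CPM, against 13.7 and 27.9 CPM. Of 22 interferon response genes none was past 4-fold in both libraries, too few genes to set apart from the 2.35 percent over all genes. The matrix list had a median log2 ratio of -0.07 in E and -0.02 in F. Of its 18 genes compared 2 were at least 4-fold higher, adam8a, a membrane protease, and fn1a, a fibronectin. mmp9 and mmp13a, matrix proteases, were not, and 1 macrophage held 52.9% of the mmp9 UMIs in E and 71.8% in F.

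**Figure D3:**
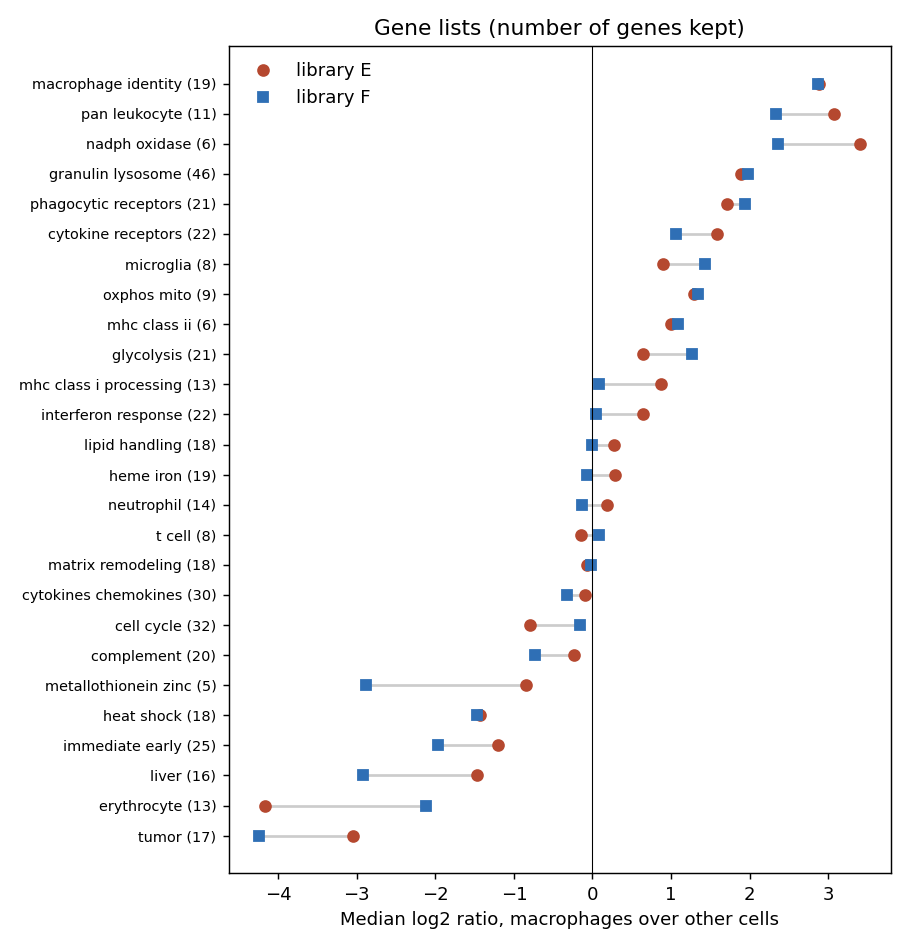
Median log2 ratio, macrophages over other cells, of the genes of 26 lists (number of genes compared in brackets), with a circle for library E and a square for library F. Macrophage and lysosome lists lie to the right of 0 in both libraries (lysosome 1.89 and 1.98 with its 3 ranking genes) and tumor, erythrocyte and immediate early lists to the left (tumor -3.05 and -4.24).

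The lists with most lower genes were those of tumor cells, erythrocytes and stress. In the tumor list 11 of 17 genes were at least 4-fold lower in both libraries, and in the erythrocyte list 7 of 13, against 1.49 percent over all genes. hbaa1, an alpha globin, was at 167 and 14.6 CPM in macrophages of E and F, against 30897 and 1737 CPM in the other cells. tuba8l3, a tubulin gene, had 2 UMIs in macrophages of each library, against 391 and 365 CPM, and urah, an enzyme of urate breakdown, 0 and 3 UMIs, against 170 and 758 CPM. Of 25 immediate early genes 9 were lower and none higher. fosab, a subunit of the AP-1 factor, had 10 UMIs in macrophages of E and 129 UMIs (104.9 CPM) in F, against 366 and 2394 CPM. Of 18 heat shock genes 6 were lower, the inducible ones hsp70.1, hsp70.2, hsp70.3, hsp70l, hspb1 and hsp90aa1.2. hsp70.3 was at 96.8 and 668 CPM, against 925 and 10828 CPM. The constitutive chaperone hspa8 was at 4943 and 5058 CPM, against 3226 and 3738 CPM. mt2, a metallothionein that binds zinc and copper, was at 718 and 755 CPM, against 5767 and 7770 CPM. Mitochondrially encoded genes had a median ratio of 1.297 in E and 1.343 in F with none of 9 past 4-fold, and the median share of mitochondrial UMIs was 2.55% and 2.81% in macrophages, against 1.04% and 0.938% in the other cells.

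Most of the other cells are not leukocytes, so the contrast was repeated against 3 clusters in which ptprc, the pan-leukocyte phosphatase CD45, was detected in 67.4% or more of the cells. These were the neutrophil-like cluster led by lyz, the cluster led by ighv1-4, igic1s1 and GZMH, and a cluster led by si:dkey-203a12 genes, with 175 cells in E and 234 in F outside the macrophages. Against them 181 genes were at least 4-fold higher in macrophages in both libraries, of which 128 were among the 321. Of the 204 genes lower against all other cells, 5 were also at least 4-fold lower against these leukocytes. All genes lower against these leukocytes are counted below with the other alternatives. The overlap is a count and was not tested. marco had no UMI in these cells, against 391 and 497 CPM in macrophages, where it was detected in 43.6% and 70.8% of cells. si:dkey-6n3.3 (log2 ratios 7.86 and 7.96) and the amino acid transporter subunit slc3a2a (5.12 and 5.72) were also higher in the summed UMIs of macrophages. Yet si:dkey-6n3.3 had no UMI in 30 of 55 macrophages of E and 40 of 65 of F. Among the ranking genes, c1qc was at 557 and 681 CPM in macrophages and 2.07 and 0 CPM in these leukocytes. grn2 had log2 ratios of 7.09 and 9.64. These 2 genes took part in the choice of cells, so their ratios are no separate evidence. Other genes were shared with leukocytes. The chemokine receptor gene ccr9a was at 442 and 954 CPM in macrophages of E and F and 509 and 433 CPM in the leukocytes. ptprc was at 331 and 418 CPM in macrophages and 232 and 278 CPM in the leukocytes, and spi1b at 787 and 794 CPM in macrophages and 470.5 and 338 CPM in the leukocytes. cybb was at 163 and 89.4 CPM in macrophages and 65.7 and 51.1 CPM in the leukocytes, less than 4-fold apart. ctss2.1 was at 1768 and 2389 CPM in macrophages and at 954 and 2085 CPM in the lyz cluster alone. hp was at 1377 and 1103 CPM in macrophages and at 2726 and 3647 CPM in the si:dkey-203a12 cluster. cd74a was at 779 and 1534 CPM in macrophages and at 556 and 801 CPM in the cluster with igic1s1 and GZMH.

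Macrophages also differed among themselves. grn1 ran from 1242 CPM in the lowest macrophage of E to 54945 CPM in the highest, with a median of 10670.0 CPM, and from 2660 to 45911 CPM in F with a median of 11383 CPM. grn2 had no UMI in 23 of 55 macrophages of E and 26 of 65 of F, but passed 10000 CPM in 7 and 10. The 10 macrophages with most grn2 UMIs held 81.6% of them in E and 86.8% in F, against 48.4% and 40.1% for grn1. The share of macrophages with grn2 was 58.2% and 60% as measured, and 38.1% and 50% after each cell of at least 5000 UMIs had been thinned to 5000, which kept 42 macrophages of E and 56 of F. At this depth c1qc was detected in 83.3% and 75%, mfap4 in 35.7% and 69.6%, and mpeg1.1 in 31.0% and 25%.

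Across the thinned macrophages, Spearman's rho was computed for 99 pairs, each of a ranking gene with another ranking gene or with a gene of large ratio. It is a description over cells of 1 library each, and the ranking on the sum of the 6 genes can itself shape it. The median rho was 0.125 in E and 0.119 in F, and 11 pairs reached 0.35 in both. Most of these joined c1qc or mfap4 to other genes of the group. c1qc went with NPC2 (1 of many) (0.48 in E and 0.57 in F), zgc:136870 (0.57 and 0.43), c1qb (0.36 and 0.63) and stoml3b (0.54 and 0.36), and mfap4 with marco (0.41 and 0.47), stoml3b (0.54 and 0.45) and si:ch211-147m6.1 (0.46 and 0.49). lygl1 went with si:ch211-147m6.1 (0.51 and 0.51). The 19 pairs of grn2 had values between -0.40 and 0.26. si:dkey-119g10.4 and si:dkey-6n3.3, a pair chosen after their values were seen, had a rho of 0.68 and 0.75. Both passed 1000 CPM in the same 8 macrophages of E and 13 of F, of 9 and 16 that passed it for si:dkey-6n3.3 and 16 and 22 that passed it for si:dkey-119g10.4. si:dkey-6n3.3 had no UMI in 30 macrophages of E and 40 of F.

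**Figure D4:**
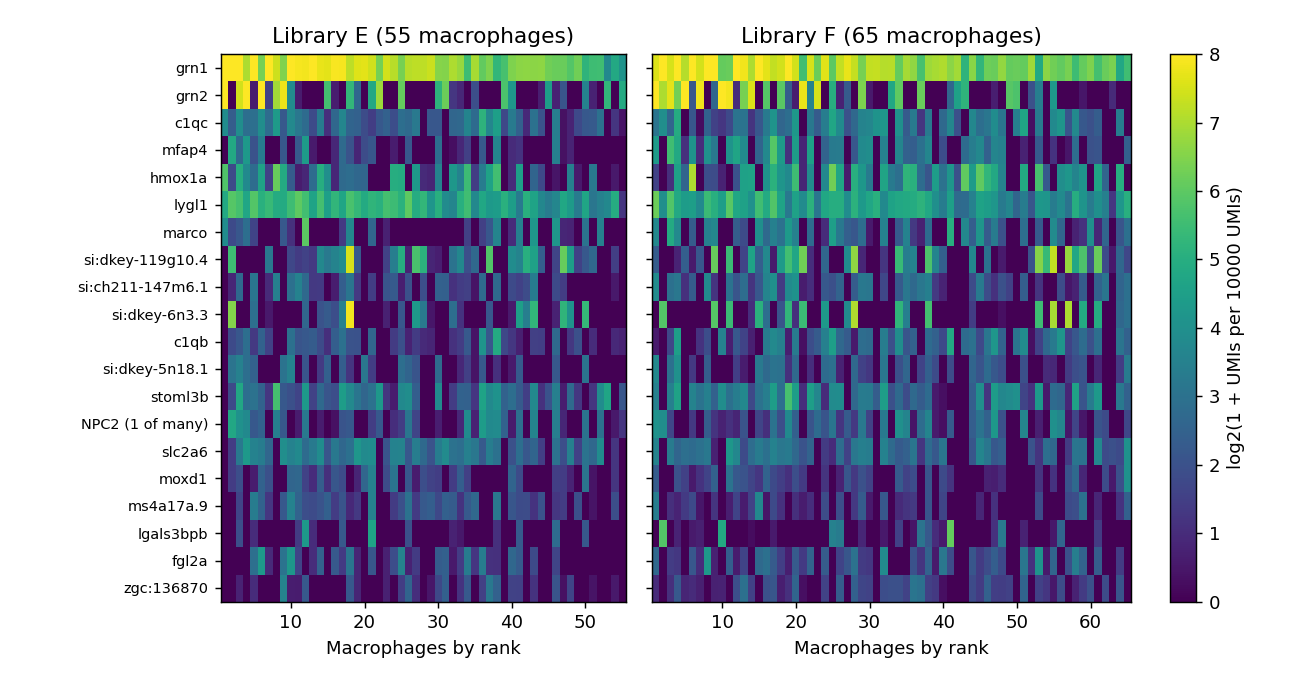
Level of 20 genes (rows) in each of the 55 macrophages of E and 65 of F (columns, by rank), as log2 of 1 plus UMIs per 10000 UMIs. grn1 and lygl1 run through every cell, grn2 is absent from 23 and 26 cells, and si:dkey-6n3.3 is absent from 30 and 40 cells.

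Macrophages of E and F were compared gene by gene, with 1 library on each side and therefore no test. Of 13660 genes, 50 (0.366 percent) were at least 4-fold higher in E and 53 (0.388 percent) at least 4-fold higher in F. Single cells carried many of them. In 1 macrophage of E lay 99.5% of the UMIs of si:dkey-203a12.8, 99.3% of si:dkey-203a12.6 and 99.8% of si:dkey-203a12.2, and in 1 macrophage of F 98.8% of the lyz and 97.6% of the npsn UMIs. Of the 50 and 53 genes, 20 and 32 stayed past 4-fold when each gene's highest cell was left out of each library. zgc:173593 was spread over 41.8% of macrophages of E, at 421 CPM (378 to 467), and had no UMI in macrophages of F, where the floor of 3 UMIs is 2.44 CPM. In the other cells it was at 2.32 CPM in E and 3.29 CPM in F. si:ch211-241c24.3 was the other way round, with 10 UMIs in macrophages of E, detected in 7.27%, and 173 CPM in macrophages of F, detected in 40%. Among named functions, cxcl11.1, an interferon-induced chemokine gene, was at 215 CPM in macrophages of E and 30.1 CPM in F, with 32.7% and 15.4% of cells, and irg1 was at 1039.9 and 589 CPM. These last 3 genes were named after their values were seen. mfap4 was at 244 CPM in macrophages of E and 872 CPM in F, and at 275 and 788 CPM as the mean over cells. grn2 was at 1408 and 5787 CPM in the summed UMIs but at 5664 and 4896 CPM as the mean over cells. Its direction thus turned with the weighting, and the mean in E took in 1 macrophage of 728 UMIs with grn2 at 135989 CPM. As medians over cells, grn2 was at 68.7 CPM in E and 102 CPM in F. The other cells differed in grn2 too, with a log2 ratio of E over F of -1.55. Heat shock genes were also lower in E, with hsp70l at 40.6 CPM in macrophages of E and 598 CPM in F, but the other cells differed in the same way, with log2 ratios of E over F of -3.72 in macrophages and -3.38 in the other cells. In F, 1 macrophage held 62.3% of the hsp70l UMIs.

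**Figure D5:**
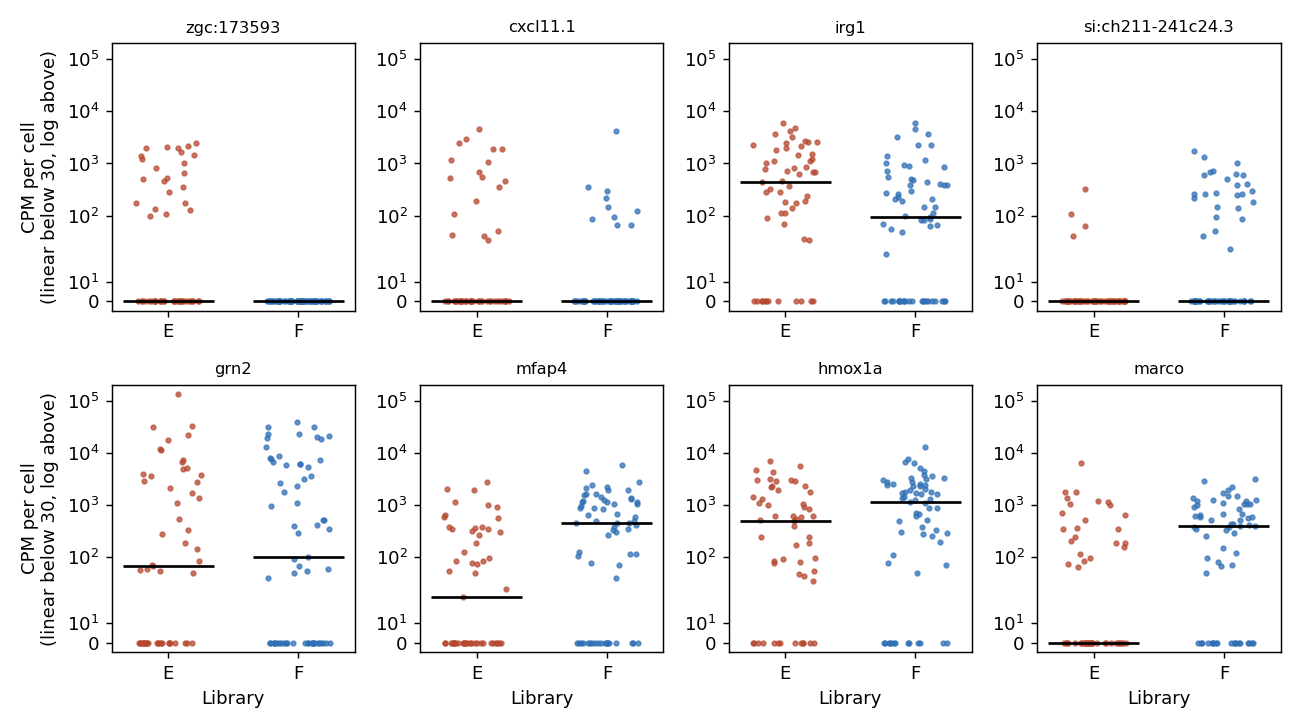
CPM in each macrophage (points) of libraries E and F for 8 genes, on an axis that is linear below 30 CPM and logarithmic above, with a bar at the median. zgc:173593 is at 0 in all 65 macrophages of F and in 32 of the 55 of E, and grn2, hmox1a and irg1 overlap between the libraries.

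Transcripts of other cell types in macrophages were counted cell by cell. hbaa1 was found in 94.5% of macrophages of E and 23.1% of F. Its level was 167 CPM (141 to 197) and 14.6 CPM (8.67 to 23.1) in macrophages, and 197 CPM (158 to 242) and 40.5 CPM (28.1 to 56.6) in the cells of the lyz cluster, where it was found in 84.4% and 27%. BRAFhuman, the transgene, had 60 UMIs in 7 macrophages of E, 12.7% of the cells (exact binomial interval 5.27% to 24.5%), and 7 UMIs in 1 macrophage of F, 1.54%. In the lyz cluster it was found in 12.5% of cells in E and 7% in F, at median depths of 11962 and 5821 UMIs. Of the 60 UMIs, 24 lay in 1 macrophage. EGFP had 27 UMIs in 4 macrophages of E and none in F. Taking the 7 tumor markers together, 4 macrophages of E and 1 of F held 10 or more UMIs. The neutrophil markers mpx, lyz, npsn and lect2l were found in 34.5% of macrophages of E, with 69 UMIs, and in 50.8% of F. There 1 macrophage held 1893 of 2034 UMIs, and the others held 141. The wider neutrophil list had 3771 UMIs in macrophages of E (4508 CPM, against 2585 CPM in the other cells). In F it had 8289 UMIs (6740 CPM, against 7373 CPM). Of its 14 genes compared, 0 were past 4-fold in both libraries. No UMI of the natural killer markers nkl.2, nkl.3, nkl.4, GZMH and prf1.1 was found in macrophages of E, nor of the T cell markers lck, zap70, cd4-1 and cd8a or the B cell markers cd79a, cd79b, pax5 and igic1s1. For 0 of 55 cells the exact binomial upper bound is 6.49% of cells with a UMI, which does not limit the cells that express a gene. The wider natural killer list had 124 UMIs in macrophages of E (148 CPM, against 48.6 CPM in the other cells), of which 108 were of the chemokine gene ccl33.3. The wider T and B cell lists had 19 and 8 UMIs there. icn, listed as a keratinocyte marker, was at 4687 and 4642 CPM in macrophages, against 6302 and 8078 CPM in the other cells, while krt4 had 0 and 7 UMIs. The whole keratinocyte list was at 5794 and 5802 CPM in macrophages and 4505 and 5885 CPM in the lyz cluster. It was at 11604 and 13977 CPM in a cluster led by mia and mt2, and at 866 and 1278 CPM in the cluster with igic1s1 and GZMH. Its UMIs were thus not confined to keratinocytes. A doublet caller set to an expected rate of 0.06 marked 2 cells of E and 5 of F, 0.112% and 0.499%. Of these 1 was a macrophage, of E, so the macrophage of F with 1893 neutrophil marker UMIs was not marked. The calls therefore do not bound the number of doublets. Doublets had been gated out in the sort and no cell was removed here, and the part that mixed droplets or free RNA have in these counts was not tested.

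In pooled nuclei, which the labels place in 1 library of 3 fish, 1249 of 13380 nuclei had at least 3 of the 6 genes detected, and they were deeper than the rest, with a median of 4344 UMIs against 2059. These nuclei were chosen on grn1 and the other 5 genes, so the values are a description. marco was at 128 CPM in these nuclei and 9.87 CPM in other nuclei, and csf1ra at 58.2 and 5.61 CPM. hmox1a was at 9.75 CPM in these nuclei and 3.09 CPM in other nuclei, where dissociated macrophages had 844 and 1649 CPM, and ctss2.1 was at 1165 and 1191 CPM. Fish, dissociation, compartment and the way members were chosen differ between cells and nuclei and cannot be told apart.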

How the data were processed

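Per the labels and the paper's methods, cells were counted with Cell Ranger (the submitters' notes name version 3.1.0 and genome build GRCz10, while the paper's methods name a later version for these libraries). The counts deposited are whole UMIs of each gene in every called cell, without scaling, and for nuclei in every barcode (those with at least 500 UMIs were kept here). Kept cells other than macrophages held 32336136 UMIs in E and 13050484 in F. The paper's methods speak of 2 fish split in a single reaction and its Results of 3, so 1 fish per library rests on the labels.

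Members and gene lists were chosen with earlier results of these data known. Of the listed names, 45 were not found. UMIs were summed per library and group, scaled to 1000000, and compared as log2 ratios with 5 CPM added, for genes with at least 10 UMIs in each library. Intervals cover counting error only. The ratio was tested on simulated counts. Genes sharing 1 symbol were kept as separate rows, and reads of near-identical copies (MFAP4, NPC2 and si:dkey-203a12 genes) may have been divided among them. No differential test was made, since members were chosen on the readout and each library stands alone. Genes named are the 6 ranking genes, the 20 higher genes with the largest smaller ratio of the libraries and at least 50 UMIs in each, the 8 lower ones by the same measure with at least 50 CPM in the other cells, up to 5 abundant and 3 past 4-fold per list, the 5 each way between libraries, and markers at 0. A few others were named after their values were seen: cxcl11.1, irg1 between the libraries, slc3a2a, and list members given as counter-examples.

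Clusters came from Seurat 5.3.0 with sctransform 0.4.2 in R 4.3.3 (15 principal components, resolution 0.8), doublet calls from scanpy 1.11.5 (expected rate 0.06), and sums from Python 3.11.15 (pandas 2.3.3, scipy 1.17.1, numpy 2.4.6). Spatial sections were not used here.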

Additional observations from a re-analysis of the deposited data

How the results depend on the processing

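Against the 321 higher and 204 lower genes, single libraries gave 418 to 572 and 378 to 642. Adding 1 CPM in place of 5 gave 536 and 741, and a 2-fold level 1093 and 881. Weighting each cluster of other cells equally gave 171 higher. The lower genes numbered 75 with the top 65 and 75 cells, 95 with at least 4 genes detected and 102 with at most 10% mitochondrial UMIs. Against the other leukocytes, an alternative chosen after seeing the data, there were 181 and 92, of which 128 and 5 were among the 321 and 204. In that alternative the median log2 ratio of the tumor list turned to 0.071 and of the liver list to 0.13. Between the libraries, 50 genes higher in E and 53 in F became 86 and 166 with 1 CPM, 202 and 449 at 2-fold, and 116 and 35 with the ratio of the other cells subtracted. The E count was 32 with the top 45 and 55 cells, 93 at 10% mitochondrial UMIs, and 23 without each gene's highest cell (chosen after seeing the data). The cluster with most macrophages held 103 at resolutions 0.4 and 1.6 and 113 with log-normalized counts. Of list medians and shares of cells under the alternatives, 377 moved by no more than the spread between libraries and 137 by more. A further 2 were counted as reversed. Some list medians near 0 changed sign without being counted as reversed. The neutrophil list, for example, went from 0.025 to -0.997 with the top 45 and 55 cells. Causes of these shifts were not tested. With 55 and 65 cells, a gene under about 3 CPM cannot be told from 0.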

Other observations

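The macrophage cluster also held 26 cells that the ranking left out, 10 of E and 16 of F, of which 9 and 15 had at least 3 of the 6 genes. Median depth was 16015 and 17134 UMIs in the macrophages of E and F, and 25507 and 14539 UMIs in the cells left out. grn1 was at 15011 and 13861 CPM in the macrophages and 1098 and 2405 CPM in the cells left out. It took part in the ranking, so its lower level in the cells left out follows from the choice of cells. marco, which did not, was at 391 and 497 CPM in the macrophages and 410 and 142 CPM in the cells left out. The 19 listed tumor genes summed to 246 and 22.0 CPM in the macrophages, against 2121 and 437 CPM in the cells left out. BRAFhuman was found in 12.7% and 1.54% of the macrophages, against 30% and 37.5% of the cells left out. These shares rest on only 10 cells of E and 16 of F, set apart by their share of UMIs in the 6 genes. Whether the differences in tumor genes and BRAFhuman follow from the ranking was not tested.

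At least 2 of the division genes mki67, cdk1 and top2a were detected in 4 of 55 macrophages of E, 7.27% (2.02% to 17.6%). In F this held for 7 of 65, 10.8% (4.44% to 20.9%). The shares were 10.1% and 7.58% in the other cells of E and F. The intervals treat cells as independent and do not cover differences between fish. Median depth was 16015 and 17134 UMIs in the macrophages of E and F, and 16273 and 8155 UMIs in the other cells. The shares are not corrected for depth, and their difference was not tested. After their values were seen, a pair of genes was picked out, and which cell type their UMIs came from was not tested. The regulatory T cell factor foxp3a had 34 UMIs in 2 macrophages of F and none in E, and cd4-1 28 UMIs in 6 macrophages of F and none in E. None of 8 genes compared in the T cell list was past 4-fold in both libraries, with median log2 ratios of -0.14 in E and 0.08 in F. Of 43 UMIs of the T cell markers in macrophages of F, 1 cell held 23.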
